A study of Mus musculus with 6 samples.

Results

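The olfactory receptor (OR) genes with the numbers *Olfr1359* to *Olfr1396* were examined in mature olfactory sensory neurons (OSNs) of mice in which HP1α took the place of HP1β. They were chosen by gene number alone, as all genes with an *Olfr* number in this range and no pseudogene suffix. This gave 31 genes of the 1116 ORs listed in the data. Of the 38 numbers in the range, 5 are listed with a pseudogene suffix alone and were left out.

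ORs are G protein-coupled receptors that bind odorants. Each OSN chooses a single allele from the whole OR repertoire and keeps the others silent in compacted heterochromatin that carries H3K9me3, a histone mark bound by HP1 proteins. Most ORs are class II receptors, each of which is chosen within a band (zone) of the epithelium between its dorsomedial and its ventrolateral side, so that the marker genes of a neuron and its OR are linked. HP1α and HP1β are encoded by *Cbx5* and *Cbx1*.

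Single-cell RNA-seq libraries were made from the main olfactory epithelium of 6 samples, labelled as OSNs. The 2 swap samples (Cbx*/* in the labels) carried, after Cre recombination, *Cbx5* in place of *Cbx1* under the *Cbx1* promoter. Of the 2 control samples, control 1 was labelled WT with Cre and control 2 carried both swap alleles without Cre. The Cre is described as neuronal. One sample carried gg8-tTA, a transactivator made in immature OSNs, and 1 carried gg8-tTA with tetOP2iresGFP, through which it drives the P2 receptor *Olfr17* with GFP. The design text speaks of sorted cells and of gg8-tTA constructs in all mice, while the genotype labels name gg8-tTA in these last samples alone. No age, sex or number of pooled animals is given.

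The swap and control libraries held between 58498968 and 63277934 UMIs (unique molecular identifiers, counted molecules), the gg8tTA library 35298494 and the tetOP2 library 32005196. A mature OSN was a cell with 10 or more UMIs of *Omp*, and with fewer of *Gap43*, and the 683 to 1312 such cells of a library had median depths of 11308.5 to 12957.5 UMIs. *Gnal*, *Gng13*, *Cnga2* and *Adcy3*, of the odorant signalling cascade, were detected in 88.8% or more of them, but *Stoml3* in 41.0% in gg8tTA and 31.9% in tetOP2 against at least 77.8% elsewhere. *Cbx1* had 14 and 43 UMIs in swap mature OSNs against 1049 and 2689 in control, and *Cbx5* reached 81.3 and 99.2 against 20.8 and 39.7 CPM (UMIs scaled to the library total) after TMM normalization. *Cbx1* was 2.20 ± 1.04 against 111 ± 34.2 CPM (SD, n = 2 each), yet its adjusted p in edgeR's quasi-likelihood test over 13361 genes was 0.181, so that this test did not call the replaced gene. The Y-linked gene *Ddx3y* had no UMI in swap 1, gg8tTA or tetOP2 but up to 612 in the remaining 3 libraries, so that the sexes were mixed. Mature OSNs of control 1 held 104 CPM of 6 sustentacular cell genes and those of the other libraries 630.0 to 7224, and the results that changed most without such cells are given with both values.

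The 31 genes lie on 2 chromosomes. Chromosome 13 holds 9 of them between 21069334 and 21706833 (GRCm38/mm10). Chromosome 11 holds 22, of which 17 lie between 49109982 and 49565859, 3 between 50966530 and 51049050 and 2 between 52144593 and 52213987. By family, 22 of the 31 are MOR256 receptors, 8 on chromosome 13 and 14 on chromosome 11. No family name was found for *Olfr1373* and *Olfr1380* on chromosome 11. Identity of the coding bases was 58.2% in the median over the 198 pairs between the chromosomes (50.7% to 63.4%). Within the chromosome 13 group the median was 60.6%, and within the 17 genes on chromosome 11 it was 76.6%, with a maximum of 98.0%.

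**Figure D1:**
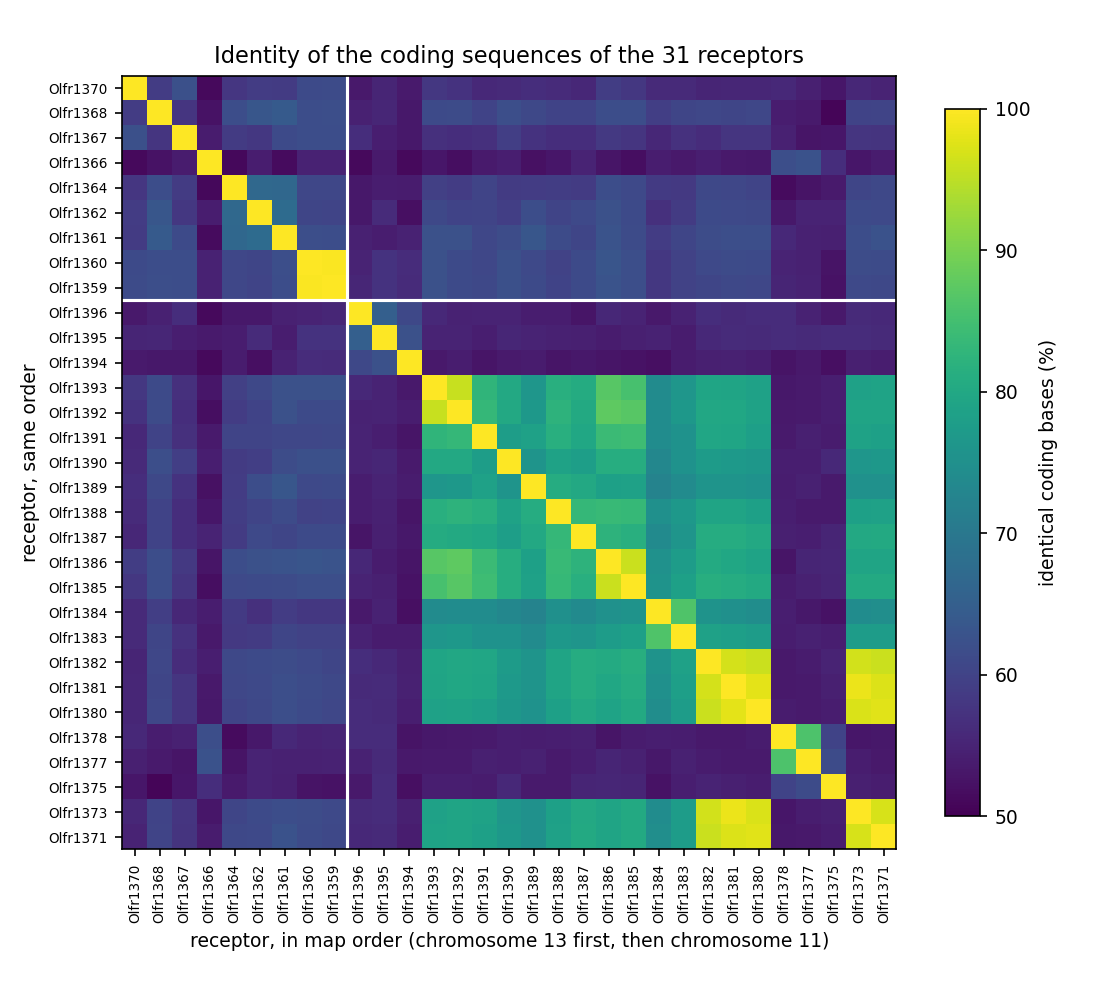
Identity of the coding sequences (colour, percent of aligned bases) for all pairs of the 31 receptors, in map order along both axes with chromosome 13 first. White lines part the chromosomes; the block of related chromosome 11 genes stands out against the chromosome 13 genes, where *Olfr1359* and *Olfr1360* (99.7%) are the bright pair.

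To show how far these receptors differ, 90 coding bases are given from the middle of the gene, starting at the conserved segment at the inner end of the third transmembrane helix (GENCODE M21, coding strand, 5′ to 3′). Capitals mark the bases that differ from *Olfr1361*, the receptor chosen by most swap neurons. *Olfr1359* is the member chosen by most control neurons. Among the 31, *Olfr1362* is the nearest to *Olfr1361* in coding sequence. *Olfr1366* is a chromosome 13 gene of family MOR130, and *Olfr1381* and *Olfr1395* are 2 of the chromosome 11 genes:
Olfr1361: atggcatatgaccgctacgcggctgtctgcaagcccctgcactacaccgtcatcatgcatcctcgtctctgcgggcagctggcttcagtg
Olfr1359: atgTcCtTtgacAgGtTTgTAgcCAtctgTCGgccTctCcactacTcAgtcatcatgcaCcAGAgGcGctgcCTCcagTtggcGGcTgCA
Olfr1362: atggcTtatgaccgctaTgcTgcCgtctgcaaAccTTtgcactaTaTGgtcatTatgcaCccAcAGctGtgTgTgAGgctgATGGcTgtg
Olfr1366: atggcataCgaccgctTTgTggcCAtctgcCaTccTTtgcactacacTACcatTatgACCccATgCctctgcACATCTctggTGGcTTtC
Olfr1381: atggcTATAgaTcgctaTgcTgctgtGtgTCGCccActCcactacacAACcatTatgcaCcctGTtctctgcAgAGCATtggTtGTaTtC
Olfr1395: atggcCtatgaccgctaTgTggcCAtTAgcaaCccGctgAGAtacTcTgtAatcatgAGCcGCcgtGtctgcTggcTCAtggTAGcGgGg
*Olfr1362* differs from *Olfr1361* at 25 of these bases, *Olfr1366* at 32 and *Olfr1359* at 33.

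*Olfr1359* (+ strand, 21698111 to 21706833) and *Olfr1360* (− strand, 21673431 to 21677405) are neighbours whose coding sequences differ at 3 of 942 bases. Capitals mark the differences, at bases 90, 318 and 326 of the coding sequence:
Olfr1359, bases 75 to 104: gccgctctttgtggtGtttctagtgtccta
Olfr1360, bases 75 to 104: gccgctctttgtggtAtttctagtgtccta
Olfr1359, bases 303 to 332: tttcattttcctggcCttgggttCcacaga
Olfr1360, bases 303 to 332: tttcattttcctggcTttgggttGcacaga
The last 500 bases of the 2 transcripts, where 3′ libraries place most reads, shared no 90-base stretch with another OR without a pseudogene suffix. Reads placed there could thus be told apart under these gene models. Pseudogenes were not compared, and 78.0% of each coding sequence lay in shared stretches. For *Olfr1392* and *Olfr1393*, 47.2% and 42.8% of the last 500 bases lay in stretches shared with another OR, and for *Olfr1371* and *Olfr1373* 56.7% and 39.4%, which makes the counts of these 4 uncertain.

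Each mature OSN was assigned the OR with most UMIs, if it had at least 3 and no tie. Of the 31 receptors, 24 were chosen by at least 1 neuron in some library, 77.4% against 80.8% of all ORs. The 7 that no neuron chose were *Olfr1360*, *Olfr1367*, *Olfr1371*, *Olfr1373*, *Olfr1375*, *Olfr1390* and *Olfr1393*. Among them are the 4 members whose gene model has fewer than 200 noncoding bases. Over all ORs, 30 of 102 such models were chosen (29.4%) against 865 of 997 with longer noncoding exons (86.8%).

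Neurons that chose one of the 31 numbered 41 of 661 and 40 of 946 neurons with a chosen OR in the swap libraries, and 38 of 959 and 43 of 1185 in the control libraries. These are shares of 6.20% (exact Clopper-Pearson 95% interval 4.49% to 8.32%) and 4.23% in swap against 3.96% and 3.63% in control. The gg8tTA library held 16 of 599 (2.67%) and the tetOP2 library 9 of 649 (1.39%), or 3.36% once the 381 tetOP2 neurons with *Olfr17* were left out. Swap 1 stood highest and swap 2 lay just above both controls. The mean share was 5.22 ± 1.40% in swap and 3.80 ± 0.236% in control (SD, n = 2 each, exact two-sided permutation p = 0.333, the smallest that 2 against 2 libraries can give). The separation was not firm, since the difference of 1.42 points was 0.433 without swap 1 and 2.41 without swap 2. Without *Olfr1361* swap 2 (2.75%) lay below both controls (3.44% and 3.29%, exact permutation p = 1.00), and with predicted doublets kept swap 2 (4.11%) lay below control 1 (4.13%, exact permutation p = 0.667). The methods speak of biological replicates without giving the animals behind each library, and all intervals and limits here cover counting error alone. As a background, cells in the sustentacular gate were thinned to 3000 UMIs, and at most 0.273% had 3 UMIs of a member, against 1.32% to 5.10% of mature OSNs thinned alike.

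The 9 chromosome 13 receptors were chosen by 16 (2.42%) and 21 (2.22%) swap neurons and by 23 (2.40%) and 23 (1.94%) control neurons, so that the libraries overlapped (exact permutation p = 0.667). For the 22 chromosome 11 receptors the counts were 25 (3.78%) and 19 (2.01%) in swap against 15 (1.56%) and 20 (1.69%) in control (exact permutation p = 0.333). The chromosome 13 value turned on single receptors, both picked here for their counts. Without *Olfr1361* the share was 0.756% and 0.740% in swap against 1.88% and 1.60% in control, and without *Olfr1359* it was 2.42% and 2.22% against 1.36% and 1.52%. The chromosome 11 difference of 1.27 points was 0.383 without swap 1 and 2.16 without swap 2.

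**Figure D2:**
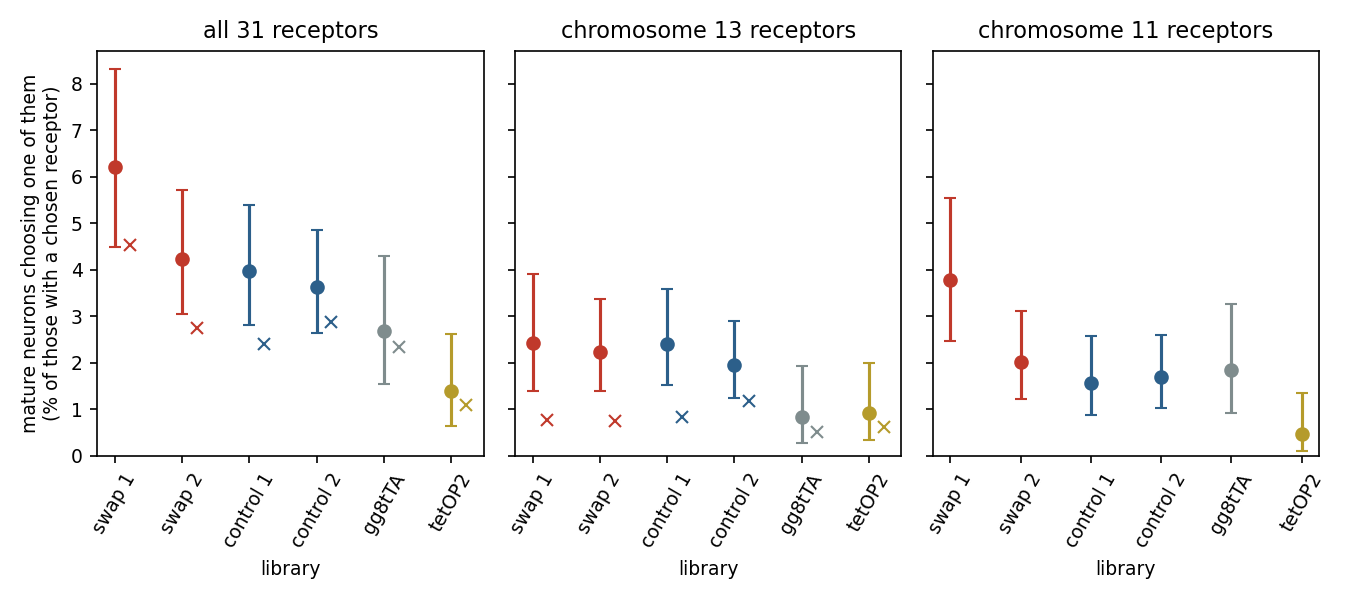
Share of mature neurons with a chosen receptor that chose any of the 31, the chromosome 13 or the chromosome 11 receptors, in percent, by library; bars are exact 95% intervals. Crosses give the share without *Olfr1361* and *Olfr1359*, which on chromosome 13 is 0.756% and 0.740% in swap and 0.834% and 1.18% in control.

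*Olfr1361* (chromosome 13, 21656880 to 21663386, − strand) was chosen by 11 and 14 swap neurons against 5 and 4 control neurons, and by 2 each in gg8tTA and tetOP2. It ranked first among all ORs in swap 1 and shared the first rank in swap 2, against ranks 12 and 38 in control 1 and 2. Its share was 1.57 ± 0.130% in swap and 0.429 ± 0.130% in control (SD, n = 2 each), a 3.66-fold ratio with no overlap. In edgeR's quasi-likelihood test on choosing cells, its log2 fold change was 1.86 (standard error 0.29, unadjusted p = 0.000287), which narrowly missed the threshold after adjustment over 507 ORs (adjusted p = 0.0505). This adjusted p ranged from 0.0255 to 0.998 over the alternatives. It passed the threshold with at least 3 *Omp* UMIs in place of 10 and with predicted doublets kept.

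*Olfr1359* was chosen by no swap neuron, against 10 and 5 control neurons (1.04% and 0.422%). Among all ORs it had rank 2 over both control libraries together, with rank 1 in control 1 and rank 17 in control 2. The swap libraries together held 0 of 1607 neurons, which allows a share of up to 0.187%, with the limit taken over the group. The pooled control share of 0.700% was 3.75 times this limit. This leaves aside the counting error of its own 15 neurons, so that it is no minimum. The gg8tTA and tetOP2 libraries, which have no swap allele, held none of 599 and 649 either, which allows up to 0.501% and 0.462%. Over the 268 tetOP2 neurons that did not choose *Olfr17* the limit was 1.12%, above the control share of 0.700%. The edgeR test gave it an unadjusted p of 0.00107 and an adjusted p of 0.108 (0.0440 to 0.998 over the alternatives). Summed over mature OSNs, *Olfr1359* had 1 and 2 UMIs in swap, 577 and 678 in control, 1 in gg8tTA and none in tetOP2. The 0 in swap depends on the doublet filter, since with predicted doublets kept swap 1 held 2 *Olfr1359* neurons and gg8tTA 1, against 11 and 5 in control. Its near-identical neighbour *Olfr1360* was chosen in no library.

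Among the other chromosome 13 receptors, *Olfr1368* was chosen by 2 and 3 control neurons and in no other library, and *Olfr1366* by 1 and 3 swap neurons and in no other library. For *Olfr1366* the pooled swap share of 0.249% was 1.78 times the 0.140% that 0 of 2144 control neurons allows. This leaves aside the counting error of its own 4 neurons, so that it is no minimum. *Olfr1362* was chosen by 2 and 4 control neurons and by 1 and 0 swap neurons. *Olfr1364* (0 and 4 swap, 1 and 4 control neurons) and *Olfr1370* (3 and 0 swap, 3 and 3 control, 2 gg8tTA and 3 tetOP2 neurons) overlapped between the genotypes. None of these 5 passed the edgeR test, with adjusted p from 0.439 to 0.968.

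On chromosome 11, *Olfr1395* was chosen by 7 and 7 swap neurons against 3 and 3 control neurons and 1 in gg8tTA. Its share in each swap library exceeded that in each control library, where edgeR gave an adjusted p of 0.375 (log2 fold change 1.61, standard error 0.68). *Olfr1391* was chosen by 1 mature neuron of each control library and of no other, a difference that is not detectable at this depth. *Olfr1381* (4 and 1 swap, 1 and 1 control, 3 gg8tTA), *Olfr1384* (2 and 0 swap, 4 and 2 control) and *Olfr1392* (5 and 1 swap, 4 and 2 control) had most of their swap neurons in swap 1. No other chromosome 11 member was chosen by more than 8 neurons over the 6 libraries. *Olfr1389*, with 8, was chosen by 3 and 3 swap, 1 and 0 control and 1 gg8tTA neurons. Its share was higher in each swap library than in each control library (edgeR adjusted p = 0.464).

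**Figure D3:**
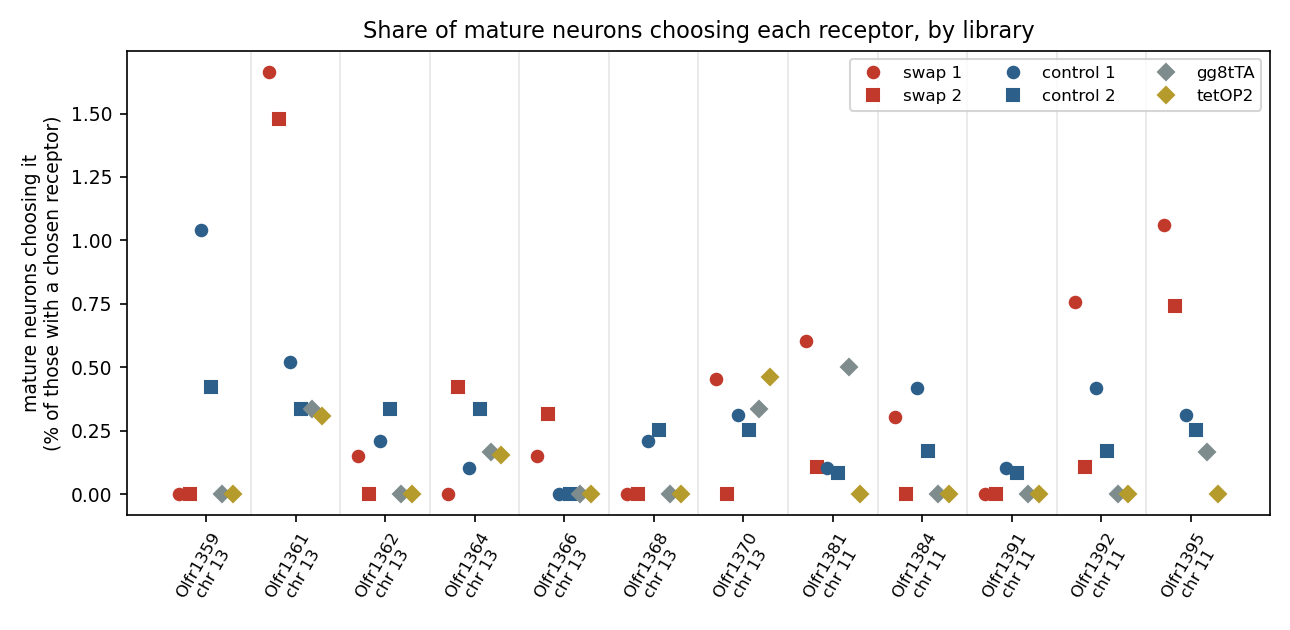
Share of mature neurons choosing each of 12 receptors, in percent of neurons with a chosen receptor; 1 point per library, coloured by group. *Olfr1361* and *Olfr1395* are higher in both swap libraries than in both controls, and *Olfr1359* is above 0 in the controls alone.

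Of the 15 members chosen by at least 3 swap and control neurons, both swap libraries lay above both controls for 5 and below for 3. Over the 507 ORs with that many cells these shares were 24.3% and 22.7%, close to those of the members (33.3% and 20.0%). The edgeR test called 0 of the 507 (percent called 0), with an unadjusted p under 0.05 for 4 of the 15 members and for 51 ORs (10.1%). DESeq2 called 0 as well, with an unadjusted p under 0.05 for 1 of the 15 members and 14 ORs (2.76%). The median log2 fold change was 0.44 over the 15 members and -0.13 over the 507 ORs.

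The same receptors were followed as RNA summed over mature OSNs, where the sum alone does not part fewer cells from less RNA per cell. It counts the UMIs of the choosing cells above again, so it is no independent measurement. Of the 31, 19 passed edgeR's filter on low counts. *Olfr1361* had 30.9 and 45.3 CPM in swap against 15.8 and 10.7 in control. *Olfr1395* had 46.3 and 61.7 against 19.3 and 18.0, a log2 fold change of 1.53 (standard error 0.24). *Olfr1366* had 161 and 295 UMIs in swap against 0 and 1 in control. *Olfr1368* (216 and 171) and *Olfr1391* (128 and 219) had UMIs in control and none in swap. edgeR called none of 13361 genes (percent called 0), with adjusted p of 0.181 to 0.729 for these 5 and *Olfr1359*. It gave an unadjusted p under 0.05 to these 6 members of 19, against 29.8% of the 580 ORs tested and 2.18% of all genes. DESeq2 called 5 of the 19, *Olfr1366* and *Olfr1395* higher and *Olfr1359*, *Olfr1368* and *Olfr1391* lower in swap, with adjusted p from 1.4e-15 to 0.000358. Some of these calls rest on very few cells. The *Olfr1391* UMIs came from 1 neuron of each control library, and the 161 *Olfr1366* UMIs of swap 1 from 1 neuron. It called 25.5% of the 580 ORs and 1.34% of all genes, 0.434% higher and 0.906% lower.

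Immature OSNs (at least 10 *Gap43* UMIs, no fewer than *Omp*) gave a second set of cells from the same libraries. Of those with a chosen OR, 24 of 509 and 4 of 260 in swap and 15 of 538 and 4 of 220 in control chose a member. *Olfr1361* was chosen by 6 and 1 immature swap neurons and by 1 in each control library. *Olfr1395* was chosen by 6 and 0 against 1 and 0. *Olfr1359* was chosen by 3 immature neurons of control 1, none of control 2, none of either swap library and 1 of gg8tTA. *Olfr1368*, which no mature gg8tTA neuron chose, was chosen by 2 immature ones there. *Olfr1366* was chosen by 1 immature neuron in swap 1 and 1 in control 1. *Olfr1393*, which no mature neuron chose, was chosen by 1 immature neuron each in control 1 and tetOP2.

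To place the receptors along the dorsoventral axis, each mature OSN received a score, obtained by taking the mean standardized level of 4 dorsal genes (*Sema3f*, *Robo2*, *Acsm4*, *Nqo1*) away from that of 5 ventral ones (*Nfix*, *Nfib*, *Nfia*, *Nrp2*, *Ncam2*), in units of SD over all mature OSNs. Negative values are dorsal. The 12 members with at least 3 neurons in the control and gg8tTA libraries (unswapped neurons below) had mean scores from -1.49 to 1.43, and their median was 0.782 against 0.380 for the 432 ORs scored. At or above percentile 75 of the 432 ORs, the ventral end, lay 6 of the 12, against 25% of all ORs, with 2 at the corresponding dorsal end and 4 between.

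Neighbours on chromosome 13 were chosen at opposite ends of the axis. Unswapped *Olfr1359* neurons scored 1.31 ± 0.465 (SD over 15 cells). All 15 held the ventral marker *Cidea* and none held *Nqo1*, an oxidoreductase of dorsal OSNs. Unswapped *Olfr1361* neurons scored -1.32 ± 0.898 (11 cells), and 10 of the 11 held *Nqo1*. *Olfr1362* neurons scored -1.49 ± 0.396 (6 cells), all with *Nqo1* and *Acsm4*. *Olfr1364* (0.930, 6 cells), *Olfr1368* (1.05, 5 cells) and *Olfr1370* (0.355, 8 cells) had positive means, and none of their 19 neurons held *Nqo1*. Of these, *Olfr1370* lay near the middle of all ORs, at percentile 48.7. Cells of 1 library share their source, so these SDs describe cells and test nothing.

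Of the 6 chromosome 11 receptors scored, 3 lay at the ventral end and 3 between the ends. Unswapped means were 1.43 for *Olfr1381* (5 cells), 1.37 for *Olfr1384* (6 cells) and 1.06 for *Olfr1392* (6 cells), with *Nqo1* in 1 of these 17 neurons. *Olfr1380* (0.634, 3 cells) and *Olfr1396* (0.439, 5 cells) lay near the middle of all ORs, at percentiles 60.5 and 52.2. *Olfr1395*, of family MOR277, lay lower at -0.453 (7 cells, 5 with *Nqo1*). *Olfr1389*, of family MOR256 like most of its neighbours, was chosen by dorsal neurons, at -1.22 in 2 unswapped cells and -1.25 in 6 swap cells, all 8 of them with *Nqo1*.

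Swap neurons were set beside unswapped neurons with the same receptor. *Olfr1361* swap neurons scored -1.42 ± 0.525, and all 25 held *Nqo1* and none *Nrp2* or *Ncam2*. *Olfr1392* scored 1.46 (6 cells) and *Olfr1384* 1.43 (2 cells). *Olfr1364* scored 2.14 in 4 swap cells (1.55 to 2.70) against -0.365 to 1.59 in the 6 unswapped ones, and *Olfr1381* 0.820 in 5 cells. *Olfr1395* scored -0.109 in 14 swap cells (-1.41 to 1.65), 6 of them with *Nqo1*. The 4 *Olfr1366* neurons, found in swap alone, scored -1.32 and all held *Nqo1*. These comparisons rest on single cells of 2 libraries and were not tested.

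**Figure D4:**
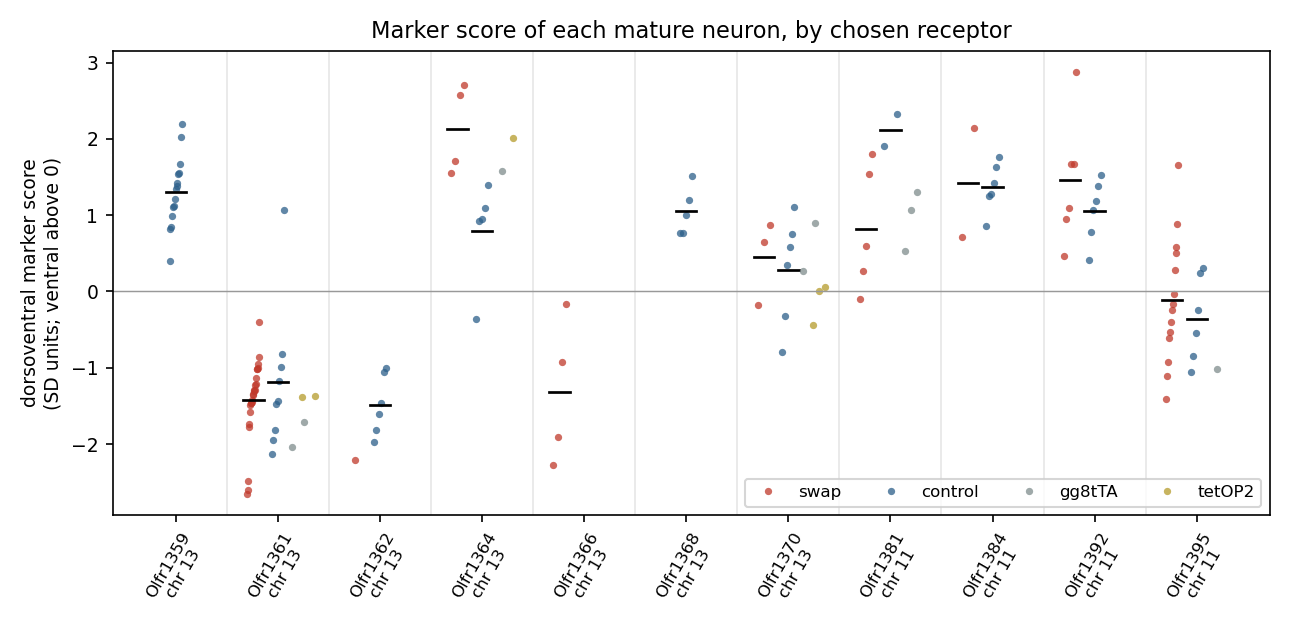
Dorsoventral marker score (SD units, ventral above 0) of each mature neuron, grouped by the receptor it chose and coloured by group; black bars are means over swap and over control cells. *Olfr1361*, *Olfr1362* and *Olfr1366* cells lie mostly below 0, and *Olfr1359*, *Olfr1368*, *Olfr1384* and *Olfr1392* cells above it.

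Over all neurons that chose a member, the mean score per library was -0.180 and -0.506 in swap against 0.438 and 0.418 in control (difference -0.771, exact permutation p = 0.333, the smallest possible). It was 0.238 in gg8tTA (16 cells) and -0.287 in tetOP2 (9 cells), which also has no swap allele. Neurons with other ORs scored -0.101 and -0.0871 in swap, 0.0946 and 0.142 in control, -0.192 in gg8tTA and 0.167 in tetOP2. For these neurons gg8tTA, which has no swap allele, thus lay below both swap libraries. Chromosome 13 choosers scored -1.18 and -0.682 against 0.288 and 0.186, and chromosome 11 choosers 0.458 and -0.312 against 0.670 and 0.684. Both sets were thus lower in each swap library than in each control library. However, the chromosome 11 difference of -0.603 was -0.218 without swap 2 and -0.989 without swap 1. In gg8tTA, chromosome 13 choosers scored -0.199 (5 cells) and chromosome 11 choosers 0.436 (11 cells), the latter below swap 1. In tetOP2 the scores were -0.186 (6 cells) and -0.488 (3 cells), the latter below both swap libraries. The receptors counted differ between the genotypes, since 25 of the 37 swap neurons with a chromosome 13 receptor chose *Olfr1361* (67.6%), and 15 of the 46 control neurons chose *Olfr1359*.

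The amount of the chosen receptor was compared after thinning to 3000 UMIs. The median neuron that chose a member held 18 and 19 UMIs of it in swap and 17.5 and 27 in control (exact permutation p = 1.00). Unthinned medians were 69 and 69.5 against 81.5 and 142, and thinned means 19.2 and 20.2 against 21.2 and 33, both without overlap (exact permutation p = 0.333 each, the smallest possible). Between receptors, the median ranged from 8 thinned UMIs for *Olfr1361* (11 unswapped cells, 10 in 23 swap cells) to 69 for its neighbour *Olfr1362* (6 cells). *Olfr1370* (39), *Olfr1384* (33.5), *Olfr1392* (22.5) and *Olfr1359* (17) lay between. Over the 6 libraries, 6 member neurons held 3 or more UMIs of a further OR, with *Olfr1380* beside *Olfr1381* as the pair from within the set. By library this was 0% to 6.98% of member neurons and 4.69% to 8.84% of the others. The pair was seen at 107 *Olfr1381* and 3 *Olfr1380* UMIs, and its coding sequences are 98.0% identical. Whether reads were assigned to the wrong gene of the 2 was not tested.

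Non-OR genes were then compared between neurons that chose a member and neurons that chose another OR, with the library as a block over the swap, control and gg8tTA libraries. Of 10706 genes, edgeR called 22 lower (0.205%) and 1 higher (0.00934%) in member neurons. The other neurons are far more numerous, and genes near 0 in member neurons can pass the filter on low counts through them. The lean to lower calls is therefore not read as a result about the members. The calls of *Avp*, *Fxyd2* and *Dio2*, at 6, 3 and 1 UMIs in member neurons, are not read so either. These genes entered the test through the other neurons. *Avp*, the vasopressin gene, of the ventral list, reached 0 to 6.31 CPM in member neurons and 22.4 to 154 in the others (edgeR adjusted p = 7.2e-10, log2 fold change -5.08 ± 0.30, standard error). Over 178 member neurons 6 *Avp* UMIs were found, in 5 cells of 5 receptors. The share of cells with any *Avp* UMI overlapped between the classes. It was 0% to 6.98% of member neurons and 1.55% to 4.19% of the others, by library. *Fxyd2*, a regulatory subunit of the sodium pump, had 3 UMIs in those neurons and 3.47 to 166 CPM in the others (adjusted p = 2.4e-09 from edgeR, log2 fold change -5.64, or -6.85 without sustentacular-rich cells). *Cd55*, a complement regulator of the dorsal list, was lower with a log2 fold change of -1.82, and the signalling suppressor *Socs2* with -0.85 (adjusted p = 0.000392 and 9.9e-05 from edgeR). The transcription factor gene *Tshz1* (-1.17), the fatty acid receptor gene *Cd36* (-1.79, or -3.72 without sustentacular-rich cells), the tubulin-binding *Tppp3* (-1.79), the teneurin gene *Tenm2* (-0.92) and the deiodinase gene *Dio2*, at 1 UMI in member neurons, were lower in all 5 libraries as well. *Gstm1*, a glutathione transferase gene (-0.70), was lower in all 5 libraries too, but its change was 0.02 without sustentacular-rich cells. The gene called higher was *Fabp7*, named after its values were seen. Of its 300 UMIs, 231 came from 1 *Olfr1395* neuron of control 2 and 58 from 1 of control 1.

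By list, 2 of 9 dorsal genes (*Cd55*, *Socs2*) and 1 of 11 ventral genes (*Avp*) were called lower in member neurons and none was called higher. The *Avp* call carries the filter limit given above. *Nqo1* (0.14), *Acsm4* (-0.14), *Robo2* (-0.41), *Sema3f* (-0.27), *Cartpt* (-0.29), *Ncam1* (-0.04) and *Plxna1* (-0.15) were not called. Nor were *Ncam2* (-0.11), *Nrp2* (-0.24), *Nfia* (0.39), *Nfib* (0.00), *Nfix* (0.29), *Cidea* (0.06), *Rprm* (-1.13), *Ifi27* (0.29) and *Pdlim1* (0.84). *Pcp4l1* (-0.52) had an adjusted p of 0.0120 in edgeR but a change under the threshold of 0.58. None of 12 odorant signalling genes was called, with a median of 0.087 against -0.015 over all genes tested. None of 12 genes for OR choice, such as *Lhx2*, *Ebf1* and *Rtp1*, was called either (median -0.009).

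Neurons with a chromosome 13 receptor differed from neurons with a chromosome 11 receptor in *Nqo1* and in *Ptn*, which encodes the growth factor pleiotrophin. *Nqo1* reached 1923 and 2042 CPM in swap, 608.9 and 899.6 in control and 1489 in gg8tTA with a chromosome 13 receptor. With a chromosome 11 receptor it reached 145 and 530.2, 158 and 52.4, and 106. With an edgeR adjusted p of 1.8e-05 over 3976 genes (0.0252% called higher), the log2 fold change was 2.99 with a standard error of 0.27, higher in 5 of 5 libraries. *Nqo1* was not shared by the chromosome 13 receptors. Its 1392 UMIs there came from 46 of 47 neurons of *Olfr1361* (1043 UMIs), *Olfr1362* (275) and *Olfr1366* (74), and none from the 41 neurons of the 4 other receptors chosen. On chromosome 11, *Olfr1389* neurons held 138 of its 235 UMIs. *Ptn* was lower, at an edgeR adjusted p of 0.000151 (log2 fold change -1.91, standard error 0.21, with 0.0252% of genes called lower), also in 5 of 5 libraries. *Ptn* levels with a chromosome 13 receptor were 82.2 and 91.2 in swap, 98.0 and 54.6 in control and 17.3 in gg8tTA, against 182 and 311, 332 and 371, and 52.9. Every *Olfr1395* neuron of the swap and control libraries, 20 in all, held *Ptn* UMIs. *Ptn* was uneven among the chromosome 11 receptors, with 127 of its 313 UMIs there in *Olfr1395* neurons and 59 in *Olfr1384* neurons. In gg8tTA its value with a chromosome 13 receptor was near the floor, as 1 UMI in 1 *Olfr1370* neuron.

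No other gene of the axis lists passed the test. Of 7 dorsal genes tested, 6 had positive fold changes toward chromosome 13, such as *Plxna1* (0.93), *Acsm4* (0.80) and *Cartpt* (0.74), with *Socs2* (0.04) and *Ncam1* (0.10) near 0 and *Robo2* at -0.07. Of 8 ventral genes, *Cidea* alone was positive (0.36), and *Nrp2* (-0.96), *Nfib* (-0.58), *Ncam2* (-0.56), *Nfix* (-0.49), *Pcp4l1* (-0.45), *Pdlim1* (-0.19) and *Ifi27* (-0.13) were negative. The list medians were 0.740 and -0.468 against -0.002 over all genes. None of 11 signalling genes (median -0.074) and none of 12 OR choice genes (-0.058) was called. Sustentacular genes ranged from 50.6 to 10890 CPM in chromosome 13 neurons and from 139 to 8583 in chromosome 11 neurons over these 5 libraries. Of the 6, 4 were tested and none was called. All 4 had positive fold changes toward chromosome 13, with a median log2 fold change of 1.48, above that of the dorsal list. Their part in these results was not tested beyond leaving out the cells richest in them.

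**Figure D5:**
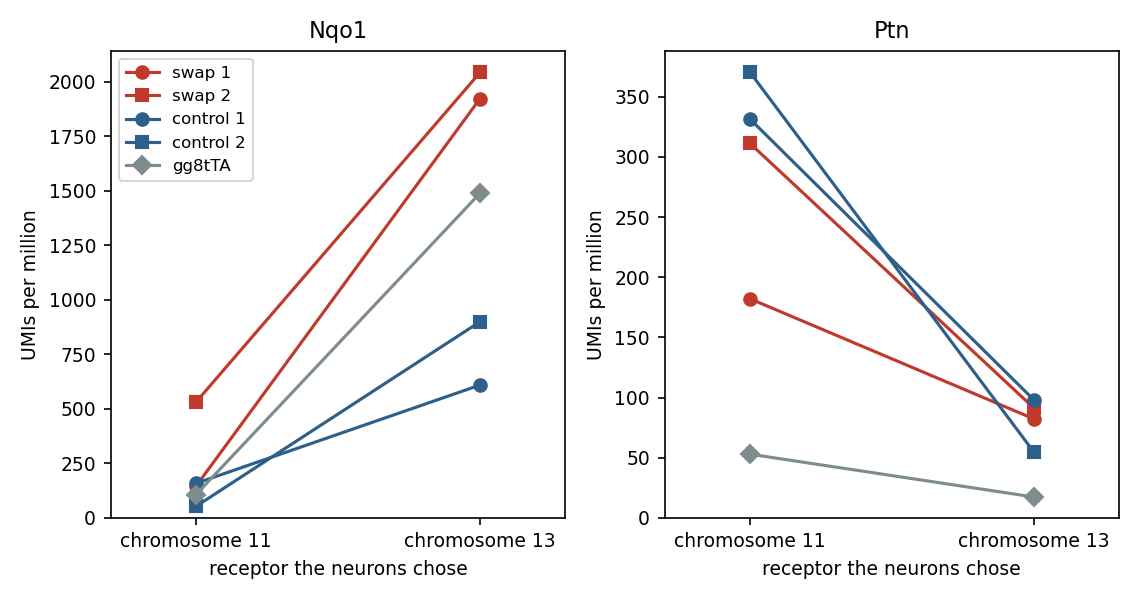
CPM of *Nqo1* and *Ptn* summed over mature neurons that chose a chromosome 11 or a chromosome 13 receptor; each line joins both values of 1 library. *Nqo1* is higher and *Ptn* lower with a chromosome 13 receptor in all 5 libraries.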

How the data were processed

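Of the 6 samples, 4 (2 swap, 2 control) enter the genotype tests. The authors deposited UMI counts per gene and cell, made with Cell Ranger (file headers of the swap and control libraries name version 3.1.0, the labels mm10); the gene annotation is not given in the sources used here. Barcodes under 1000 UMIs or 500 genes were dropped, and the cells scoring highest against simulated doublets (0.8% per 1000 cells) were left out. Shared barcodes were at most 13 per library pair. Gene models and coding sequences came from GENCODE M21, which names all 31 members, and MOR families from gene synonyms.

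Choosing cells and summed UMI counts were tested with edgeR 4.0.16 (quasi-likelihood, Benjamini-Hochberg adjustment; standard error from the fold change and F), with calls at an adjusted p under 0.05 and a log2 fold change over 0.58; DESeq2 1.42.0 was an alternative. Choosing-cell tests used ORs with at least 3 cells and the number of neurons with a chosen OR as library size, gene tests TMM and edgeR's filter on low counts. The edgeR comparisons were also run on simulated counts. Named members are the 10 with most unswapped neurons, those called, and those chosen in both libraries of 1 genotype and neither of the other; named non-OR genes are the 10 per direction with the smallest adjusted p and the same sign in every library, plus the marker lists. Members, lists and rules were chosen with earlier results of these data known. Part of the genotype labels is not reported here. Swap and control libraries share replicate numbers 1 and 2, which the labels do not tie to a batch.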

Additional observations from a re-analysis of the deposited data

Results flagged for a closer look

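Neurons that chose a member were compared with neurons of the same library that chose another OR. The difference in marker score was -0.079 for swap 1 and -0.419 for swap 2, but 0.344 for control 1 and 0.276 for control 2. Member neurons thus lay dorsal to the others in each swap library and ventral to them in each control library. The contrast was flagged for this split, so that the p-value below adds no support. The receptors chosen also differ between the genotypes. The genotypes differed by -0.559 (exact permutation p = 0.333, the smallest that 2 against 2 can give). In gg8tTA the difference was 0.429 and in tetOP2 -0.454.

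Immature OSNs lay outside the main measurement. In swap 1, 4.72% of those with a chosen OR chose a member (exact Clopper-Pearson 95% interval 3.04% to 6.93%), while swap 2 held 1.54%. The control libraries held 2.79% (interval 1.57% to 4.56%) and 1.82% (0.498% to 4.59%). The value was flagged because the swap 1 interval lay above both control values, but the control intervals overlap it.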

How the results depend on the processing

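The share of neurons choosing a chromosome 13 receptor exceeded control by 0.151 points. It became -0.992 without *Olfr1361*, -0.26 without *Olfr1361* and *Olfr1359*, and ranged from -0.0781 (without control 2) to 0.379 when 1 library was left out. The differences over all members (1.42) and over chromosome 11 (1.27) kept their sign, at 0.433 to 2.41 and 0.383 to 2.16. The difference in thinned UMIs of the chosen receptor, -3.75, ranged from -8.5 to 1.00 (without control 2).

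The count of ORs called in choosing cells rose from 0 to 3 with at least 3 *Omp* UMIs, 6 with predicted doublets kept and 2 with TMM normalization, and was 0 to 2 when 1 library was left out. TMM moved the median log2 change of all ORs tested from -0.13 to -0.62, and that of the 15 members from 0.44 to -0.09. Genes called between genotypes numbered 179 by DESeq2 and 0 to 575 when 1 library was left out, with 211 without control 1 and 575 without control 2. The lone control is then assumed to vary like the swap libraries. Genes called between member neurons and others numbered 23, with 1 higher. They rose to 38 (0 higher) with doublets kept and to 34 (3 higher) without sustentacular-rich cells. With every gene of at least 1 UMI they were 71 (17 higher), and in the control and gg8tTA libraries alone 45 (14 higher). Leaving out 1 library gave 13 (0 higher, without control 1) to 53 (4 higher, without swap 1), with 39 (14 higher) without swap 2. Between the chromosomes the count rose from 2 to 11 without sustentacular-rich cells (chosen after seeing the data), 36 with every gene and 18 in the control and gg8tTA libraries alone, and ranged from 2 to 20 (without swap 1). The cause of these shifts was not tested.

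Single genes turned direction as follows. *Gstm1* was 0.0833 with doublets kept and 0.0197 without sustentacular-rich cells. In choosing cells *Olfr1364* was -0.411 and *Olfr1392* -0.0943 with TMM. When 1 library was left out, log2 changes in choosing cells ranged from -4.20 to 1.12 for *Olfr1364*, from -1.33 to 1.38 for *Olfr1392*, from -4.59 to 0.669 for *Olfr1370* and from -4.61 to 0.0972 for *Olfr1384*. Those of RNA ranged from -10.21 to 1.74, from -0.287 to 0.557, from -12.26 to 0.360 and from -12 to 0.185. *Olfr1392* RNA was -0.513 without sustentacular-rich cells.

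With the replicate number as a block, 0 ORs and 0 genes were called, as without it (unadjusted p under 0.05 for 18 and 482). Under the block *Olfr1364* turned to -0.116 in choosing cells and -1.64 in RNA, and *Olfr1361* had an adjusted p of 0.0939. There are only 2 pairs, so the number was not taken to pair the libraries.

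Depth limits the rare receptors, since 0 of the neurons of 1 library allows shares of 0.253% to 0.501%. In tetOP2 it allows 1.12% once the neurons with *Olfr17* are left out.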
